A study of Mus musculus with 67 samples.

Results

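Kidney transcripts of the hypertensive mouse strain BPH/2J were set against those of the hypotensive strain BPL/1J. The members are the 5 kidney arrays titled BPHi and the 4 titled BPLo, 9 of the 67 arrays of a study of 4 tissues and 3 strains. The strains are inbred lines derived by selection for blood pressure, and their systolic pressures were stated as 142 ± 5 mmHg for BPH, 69 ± 1.7 mmHg for BPL and 94 ± 6 mmHg for the normotensive strain BPN/3J, without the kind of error. All animals were untreated males of 12 weeks on standard chow, and the 5 BPN kidney arrays served here for the estimate of spread and as a description. The design text counts 5 mice per strain, collected independently, but no label names the animal behind an array. The p-values rest on how far arrays of 1 strain differ, and technical variation may contribute to that. A pair of inbred strains differs across the whole genome, so a difference of strain and a difference of blood pressure cannot be told apart. Sequence differences between the strains under a probe and differences in transcript level cannot be told apart either.

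The kidney sets long-term blood pressure through how much sodium it excretes. Proximal tubules reclaim most filtered sodium, the loop and distal convoluted tubule reclaim more, and principal cells of the collecting duct make the last adjustment through the epithelial sodium channel. Angiotensin II, made from angiotensinogen by renin and converting enzyme, constricts vessels and raises sodium uptake directly and through aldosterone. Natriuretic peptides, kallikrein and nitric oxide act the other way. Intercalated cells of the collecting duct secrete acid or base.

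The arrays held the transcripts of a kidney. Kap, Umod, Slc12a1 and Lrp2 lay at or above percentile 99.8 of all probe sets in each of the 9 arrays, and Aqp2 at or above percentile 97.5. In heart and liver means the same genes lay between percentiles 17.5 and 64. Nphs1, the podocyte slit diaphragm protein, lay between percentiles 63.1 and 69.9, not far above its 55 in heart and 53.2 in liver means. The proximal phosphate transporter Slc34a1 was not analysed here.

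One BPL array carried transcripts of the adrenal gland, which lies on the kidney. Cyp11b1, the final enzyme of corticosterone synthesis, measured 2.45, 2.64, 2.54, 2.45 and 2.39 on the log2 scale in BPH 1 to 5, against 8.13, 2.45, 3.65 and 2.50 in BPL 1, 2, 4 and 5. Star, the cholesterol carrier of steroid synthesis, measured 3.60 to 3.93 in BPH, against 8.55 in BPL 1 and 3.57 to 4.24 in the other BPL arrays. Of 12 adrenal cortex genes, 0 were called in limma and 0 had an unadjusted p under 0.05. Their summed level was 11.04 to 11.12 in BPH, against 12.07 in BPL 1 and at most 11.10 in the other BPL arrays, and it reached 12.37 in BPN. BPN 4 and BPN 5 also carried Cyp11b1, at 7.78 and 8.43. Fat-cell transcripts varied within both strains: Adipoq, the fat hormone adiponectin, measured 3.28, 7.74, 9.38, 7.83 and 7.61 in BPH 1 to 5, against 9.39, 6.62, 8.75 and 8.12 in BPL 1, 2, 4 and 5. Of 8 fat-cell genes, 0 were called higher and 1 lower in BPH. This was Pparg (-0.40), which was not called without any 1 of 6 arrays (-0.34 and adjusted p = 0.129 at its highest; without BPL 1, -0.39 and adjusted p = 0.0895). The summed fat-cell level was 12.71 to 13.19 in BPH and 12.53 to 13.08 in BPL.

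**Figure D1:**
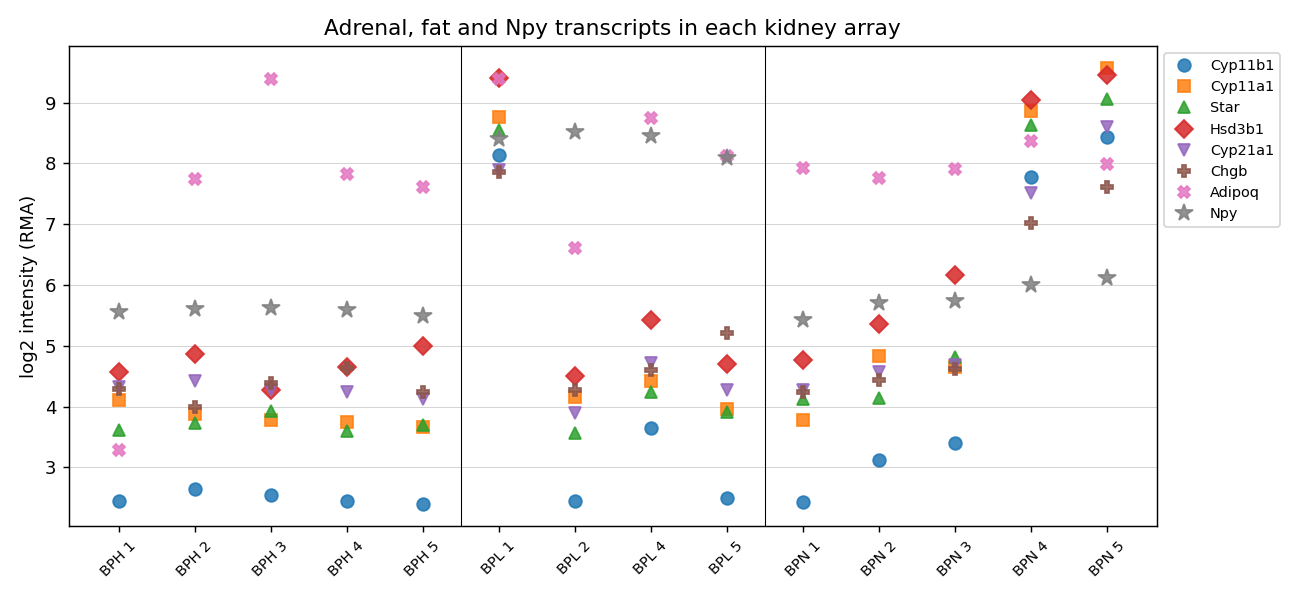
Log2 intensity (vertical axis) of 5 adrenal cortex genes, the medulla gene Chgb, the fat-cell gene Adipoq and Npy in each BPH, BPL and BPN kidney array (horizontal axis), 1 symbol per gene and array. BPL 1, BPN 4 and BPN 5 stand apart in the adrenal genes, whereas Npy is at 8.08 to 8.52 in all 4 BPL arrays and at 5.50 to 5.63 in BPH.

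In BPH against BPL kidney, 2429 of 38385 probe sets were called at an adjusted p below 0.05 (6.33%), 1206 higher (3.14%) and 1223 lower (3.19%) in BPH. By at least 2-fold, 275 were called (0.716%), 146 higher and 129 lower. The median absolute log2 difference of the called probe sets was 0.45, so most calls were of less than 2-fold. Over 19147 named genes, each taken by its brightest named probe set, 1508 were called (7.88%), 756 higher (3.95%) and 752 lower (3.93%), and the median difference was 0.0082. The shares over named genes are those to set beside the counts of each gene list below. Without BPL 1, 1936 probe sets were called, of which 1803 were among the 2429. Over named genes that fit called 6.38%, 3.5% higher and 2.87% lower. BPH and BPL arrays did not overlap for 3774 probe sets (9.83%), including 2192 of those called. Lack of overlap was therefore usual among called probe sets, and it is given below as a description alone.

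The largest differences among genes whose BPH and BPL arrays did not overlap were of many-fold size. Angptl7, a secreted protein of the angiopoietin-like family, measured 10.50, 10.53, 10.38, 10.40 and 10.19 in BPH, against 5.49, 5.53, 4.78 and 5.10 in BPL. It was 36.1-fold higher in BPH (log2 5.17 ± 0.16, adjusted p = 1.91e-12), while BPN averaged 5.06 and lay with BPL. Hdc, the enzyme that makes histamine, measured 10.59, 10.36, 10.20, 10.60 and 10.54 in BPH, against 5.70, 5.60, 5.74 and 5.85 in BPL. It was 26.6-fold higher (4.74 ± 0.09, adjusted p = 4.29e-15), and BPN again lay with BPL at 5.70. Thumpd1, an adaptor for tRNA acetylation, was 14.1-fold higher (3.82 ± 0.12), Cbr2, a carbonyl reductase, 9.96-fold higher (3.32 ± 0.12) and Atp4a, the catalytic subunit of the gastric proton pump, 6.28-fold higher (2.65 ± 0.10). For all of these, and for the uncharacterised AA465934 (2.95 ± 0.10), the BPN mean was within 0.2 of the BPL mean.

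In a second group of genes higher in BPH, BPN lay near or above BPH and BPL stood alone. Mep1a, a metalloprotease of the proximal tubule brush border, measured 13.20, 13.18, 13.16, 13.17 and 13.19 in BPH, against 9.42, 9.55, 9.64 and 9.49 in BPL, and averaged 13.18 in BPN. It was 12.6-fold higher in BPH than in BPL (3.66 ± 0.06, adjusted p = 3.21e-16), with little spread in either strain. Prxl2b, a prostaglandin F synthase, was 7.35-fold higher (2.88 ± 0.06). Mfsd4b5, a member of a solute carrier family, was 7.19-fold higher (2.85 ± 0.07), and its dimmer probe set differed by 5.39 ± 0.11. Apob, the main protein of low-density lipoprotein, was 6.15-fold higher (2.62 ± 0.26, adjusted p = 4.67e-06), with BPL spread over 5.39 to 7.30. Pik3c2g, a lipid kinase (4.06 ± 0.10), and the acetyltransferase gene Nat8f2 (3.99 ± 0.11) averaged 3.23 and 2.84 in BPL, below the lower quartile of the arrays at 3.49, so no fold is given for them.

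Among genes lower in BPH, Tm4sf5, a membrane protein with 4 spans, measured 4.53, 4.51, 4.48, 4.27 and 4.48 in BPH, against 8.87, 8.86, 8.92 and 8.80 in BPL. It was 21.2-fold lower (log2 -4.41 ± 0.07, adjusted p = 3.21e-16), and BPN averaged 4.49. Gstp3, a glutathione transferase of the pi class, was 14.9-fold lower (-3.90 ± 0.17). The beta-defensin gene Defb26 fell by 4.06 ± 0.08, with BPH at 3.38 and below the lower quartile. Coch, an extracellular protein known from the inner ear (-2.34 ± 0.13), and Rbm45, an RNA-binding protein (-2.15 ± 0.11), were lower too. BPN lay within 0.2 of BPH for each of these 5 genes.

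Other genes were lower in BPH than in both of the other strains. Atg4a, a protease of autophagy, measured 5.79, 5.82, 5.97, 5.79 and 5.95 in BPH, against 9.19, 9.16, 9.08 and 9.07 in BPL, and averaged 9.10 in BPN. It was 9.58-fold lower (-3.26 ± 0.07, adjusted p = 5.22e-15), and no BPH array came near the others. Aldh1a1, which makes retinoic acid (-2.69 ± 0.13), Bik, which promotes apoptosis (-2.55 ± 0.09), and Mcm6, a subunit of the replicative helicase (-2.63 ± 0.14, and -2.17 ± 0.13 in its other probe set), followed the same order of strains. Nipal2, Ugt2b37, a glucuronosyltransferase, and Slc7a12, an amino acid transporter, fell by 2.44 ± 0.10, 2.39 ± 0.21 and 2.28 ± 0.38 in BPH against BPL, but their BPN means were lower still than those of BPH. A dimmer probe set of Nipal2 gave -0.37 ± 0.11, adjusted p = 0.054.

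**Figure D2:**
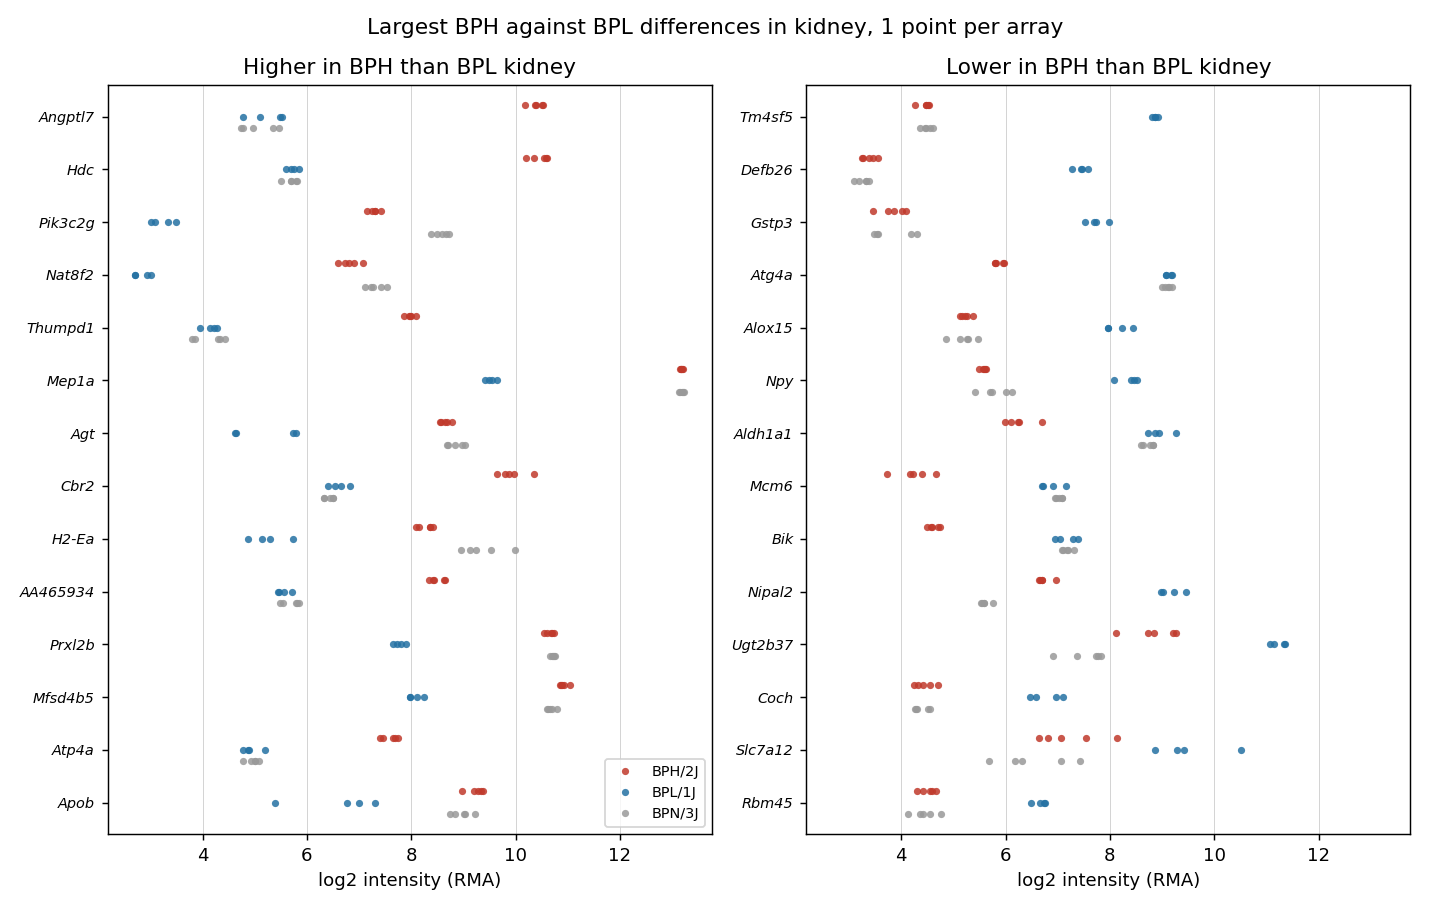
Log2 intensity (horizontal axis) of the 14 genes with the largest increases (left) and the 14 with the largest decreases (right) in BPH against BPL kidney, 1 point per array, with BPN shown beside them. BPH and BPL points do not overlap for these genes, since the rule that chose them asked for this, and BPN points lie with BPL for Angptl7, Hdc and Atg4a and with BPH for Mep1a, Agt and Tm4sf5.

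Angiotensinogen stood out in the renin-angiotensin list. Agt measured 8.64, 8.58, 8.54, 8.68 and 8.78 in BPH, against 5.73, 4.63, 5.80 and 4.64 in BPL. The BPL arrays fell into a pair near 5.8 and a pair near 4.6, all below BPH, and Agt was 10.9-fold higher in BPH (3.44 ± 0.20, adjusted p = 6.68e-09). BPN averaged 8.84. Of 11 measured genes of the list, 3 were called higher and 1 lower, and the list median was -0.10, against 0.0082 over all genes. Mme, the peptidase neprilysin, which degrades natriuretic peptides and angiotensins, measured 9.34 to 9.63 in BPH, against 8.45 to 8.62 in BPL (0.94 ± 0.08, adjusted p = 1.09e-06). Mas1, the receptor for angiotensin 1-7, fell to 5.12 to 5.45 in BPH, against 6.06 to 6.16 in BPL (-0.79 ± 0.08, adjusted p = 5.32e-06).

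Agtrap, which binds the type 1 angiotensin receptor, was higher by 0.22 ± 0.06 (adjusted p = 0.0468), and it was not called without any 1 of 7 arrays (0.19 and adjusted p = 0.132 at its highest). The angiotensin converting enzyme gene Ace measured 8.16 to 8.77 in BPH and 8.02 to 8.45 in BPL, overlapping ranges (0.26 ± 0.12, adjusted p = 0.237). The main angiotensin receptor Agtr1a gave -0.10 ± 0.08 (adjusted p = 0.563), and Nr3c2, the mineralocorticoid receptor, 0.16 ± 0.07 (adjusted p = 0.197). Ren1 was not analysed here.

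Receptors for natriuretic peptides were higher in BPH. Of 18 vasoactive genes, 5 were called higher and 1 lower, with a median of 0.17. Npr3, the clearance receptor, measured 7.51, 7.52, 7.61, 7.38 and 7.49 in BPH, against 6.82, 6.53, 6.17 and 6.43 in BPL (1.01 ± 0.12, adjusted p = 3.27e-05). The cyclase receptors Npr1 (0.63 ± 0.10, adjusted p = 7.76e-04) and Npr2 (0.43 ± 0.09, adjusted p = 0.00876) were higher as well, and for all 3 receptors every BPH array was above every BPL array. Klk1, the kidney kallikrein that releases kinins, measured 12.92 to 13.12 in BPH, against 12.11 to 12.41 in BPL (0.80 ± 0.07, adjusted p = 1.08e-06). Gucy1a1, a subunit of the nitric oxide receptor, was higher by 0.36 ± 0.08 but was not called without BPL 1 (0.34, adjusted p = 0.053) or without BPL 4 (0.30, adjusted p = 0.0683). Corin, which activates atrial natriuretic peptide, was lower by 0.43 on the log2 scale (adjusted p = 0.0373). That call was lost without any 1 of 7 arrays, among them BPL 1 (-0.35, adjusted p = 0.133). Of 6 sympathetic genes, 1 was called, the noradrenaline-degrading Maoa (0.27 ± 0.07, adjusted p = 0.0293), and it was lost without any 1 of 5 arrays (0.23 and adjusted p = 0.0941 at its highest). Without BPL 1 the list had 2 calls, Maoa and Maob, an enzyme of the same family, at 0.67 and adjusted p = 0.0151 without BPL 1 and 0.47 and adjusted p = 0.166 with it.

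Calls among principal cell transcripts of the collecting duct were all higher in BPH. Of 15 principal cell genes, 7 were called higher and 0 lower, with 9 at an unadjusted p under 0.05. All 15 differences were above 0 and the median was 0.37, against 0.0082 over all genes, of which 52.6% were above 0. The 3 subunits of the epithelial sodium channel were among them. Scnn1a measured 8.80, 8.80, 9.0, 8.69 and 8.84 in BPH, against 8.34, 8.42, 8.33 and 8.48 in BPL (0.43 ± 0.07, adjusted p = 4.63e-04). Scnn1b measured 8.37, 8.19, 8.54, 8.22 and 8.43 in BPH, against 7.85, 7.87, 7.95 and 8.0 in BPL (0.43 ± 0.08, adjusted p = 0.00211). Scnn1g measured 8.09, 7.95, 8.28, 8.0 and 8.21 in BPH, against 7.82, 7.67, 7.81 and 7.66 in BPL (0.37 ± 0.07, adjusted p = 0.00419). For each subunit the lowest BPH array was above the highest BPL array, and the BPN means, at 8.50, 7.87 and 7.78, were nearer to BPL. The summed level of the whole list was 13.83 to 14.01 in BPH and 13.64 to 13.74 in BPL. In BPN it was 13.78 to 13.9, overlapping BPH and above BPL.

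Hsd11b2, which protects the mineralocorticoid receptor from glucocorticoids, measured 10.01 to 10.28 in BPH, against 9.73 to 9.82 in BPL (0.36 ± 0.07, adjusted p = 0.00473). The water channels Aqp3 (0.52 ± 0.08, adjusted p = 3.29e-04) and Aqp2 (0.51 ± 0.10, adjusted p = 0.00385) were higher without overlap. Sgk1, a kinase induced by aldosterone, measured 9.90 to 10.70 in BPH, against 9.58 to 9.88 in BPL (0.56 ± 0.14, adjusted p = 0.0235), but was not called without any 1 of 5 arrays, BPL 1 among them (0.57, adjusted p = 0.0546). The list also had 7 calls without BPL 1, with Sgk1 out and Aqp4, another water channel, in (0.44, adjusted p = 0.0432; with BPL 1, 0.38 and adjusted p = 0.0502). Avpr2, the vasopressin receptor (0.11), and Nedd4l, which removes the sodium channel from the membrane (0.10), were not called. In bulk tissue, more cells of a type and more RNA per cell cannot be told apart.

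Calls among intercalated cell transcripts ran the same way. Of 14 genes, 8 were called higher and 0 lower, with 11 at an unadjusted p under 0.05 and a median of 0.34. Their summed level overlapped, at 12.71 to 12.9 in BPH and 12.68 to 12.75 in BPL, and was lower in BPN, at 12.48 to 12.63. The 8 calls stood whichever of the 9 arrays was left out. Atp6v0d2, a subunit of the proton pump, measured 7.91, 7.82, 7.99, 7.91 and 7.98 in BPH, against 7.47, 7.56, 7.47 and 7.23 in BPL (0.49 ± 0.07, adjusted p = 3.09e-04). The pump subunits Atp6v1b1 (0.37 ± 0.06) and Atp6v1g3 (0.44 ± 0.08), the ammonia channels Rhbg (0.46 ± 0.08) and Rhcg (0.41 ± 0.07) and the carbonic anhydrase Car15 (0.42 ± 0.08) followed. Slc4a1, the chloride-bicarbonate exchanger of acid-secreting cells, rose by 0.50 ± 0.09, and Slc26a4, pendrin of base-secreting cells, by 0.31 ± 0.07 (adjusted p = 0.00687). Slc4a1 is also a red cell gene; Alas2, the other red cell gene measured, gave -0.29 (adjusted p = 0.64). Foxi1, the transcription factor of these cells (0.26), and Car2 (-0.24) were not called.

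Calls in the list of proximal sodium and phosphate transport, which leaves out the organic ion carriers described below, were all lower in BPH. Of 11 genes for sodium, phosphate and protein uptake, 0 were called higher and 5 lower, with 7 at an unadjusted p under 0.05 and a median of -0.24. Slc5a1, a sodium-glucose cotransporter, measured 8.14, 8.08, 8.22, 8.27 and 8.46 in BPH, against 8.92, 8.74, 8.82 and 8.72 in BPL (-0.57 ± 0.09, adjusted p = 3.42e-04). Slc4a4, which carries bicarbonate into the blood, measured 11.38 to 11.56 in BPH, against 11.85 to 11.87 in BPL (-0.37 ± 0.06, adjusted p = 0.00104). The phosphate carrier Slc20a2 (-0.50 ± 0.08), the protein receptor Cubn (-0.45 ± 0.07) and the scaffold Slc9a3r1 (-0.24 ± 0.06) were lower too, and for all 5 genes every BPH array was below every BPL array. Slc9a3, the main apical sodium-proton exchanger, gave -0.20 ± 0.08 (adjusted p = 0.161), and Lrp2, the partner of Cubn, gave -0.0041 (adjusted p = 0.986). These 5 calls held whichever array was left out, but Slc9a3r1 was not called with the replicate number as a block.

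**Figure D3:**
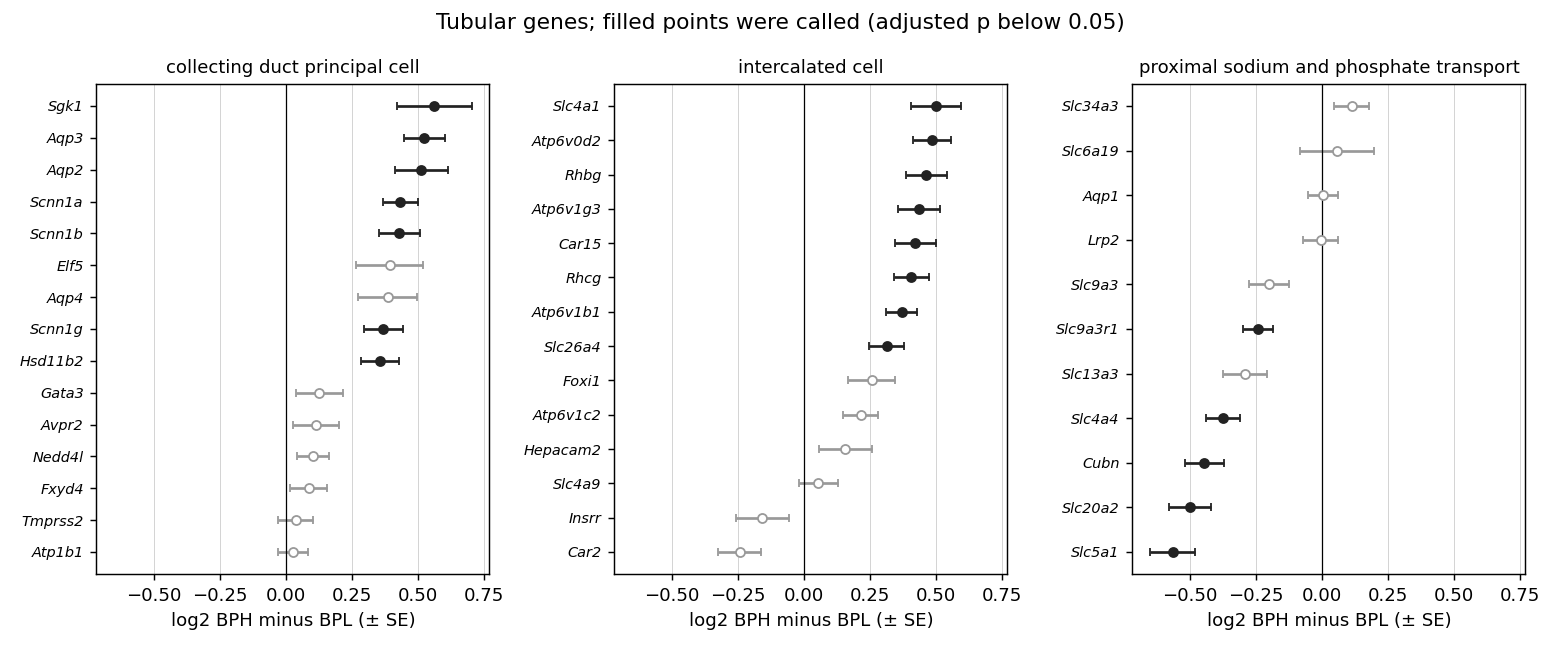
Log2 difference of BPH minus BPL kidney (horizontal axis, ± SE) for each measured gene of the principal cell, intercalated cell and proximal transport lists, with filled points for called genes. In the principal cell list all 15 points lie above 0, in the intercalated list 12 of 14, and in the proximal list the 5 called points lie between -0.57 and -0.24.

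Between these segments the loop and distal convoluted tubule changed in both directions. Of 25 genes, 5 were called higher and 2 lower, with a median of 0.01. Pvalb, a calcium buffer of the distal convoluted tubule, measured 6.97, 6.72, 6.97, 7.11 and 6.78 in BPH, against 8.96, 8.85, 8.82 and 8.78 in BPL (-1.94 ± 0.10, adjusted p = 7.2e-10). Pvalb is also a muscle gene, and of the 7 other muscle genes measured 0 were called in limma (1 at an unadjusted p under 0.05), with differences of -0.11 to 0.21. Kcnj10, the basolateral potassium channel of that segment, measured 8.56 to 8.71 in BPH, against 7.72 to 7.88 in BPL (0.85 ± 0.06, adjusted p = 8.55e-08). Umod, the uromodulin of the thick ascending limb, rose by 0.24 ± 0.05 (adjusted p = 0.011). The remaining calls were Casr, Calb1 and Bsnd, higher by 0.28, 0.36 and 0.22, and Kcnj16, lower by 0.22 on the log2 scale. Each of these 4 was lost without any 1 of at least 4 arrays, BPL 2 or BPL 5 giving the highest adjusted p (0.092, 0.108, 0.0589 and 0.126). Without BPL 1, Casr gave 0.27 (adjusted p = 0.0659) and Kcnj16 -0.20 (adjusted p = 0.116).

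The loop cotransporter Slc12a1 averaged 12.91 in BPH and 13.03 in BPL with overlapping arrays, and was not called (-0.12 ± 0.08, adjusted p = 0.48). The thiazide-sensitive cotransporter Slc12a3 gave 0.03 ± 0.06 (adjusted p = 0.85) in its brightest probe set and 0.53 ± 0.09 (adjusted p = 7.66e-04) in another, so its size and its call depend on the probe set. Its regulators Wnk4 (0.22), Wnk1 (0.06), Klhl3 (-0.02) and Stk39 (-0.10) were not called. In the vitamin D and calcium list of 7 genes, 1 was called higher, the calcium-binding S100g (0.47 ± 0.07, adjusted p = 1.73e-04), and 1 lower. The lower gene was Cyp24a1, the enzyme that inactivates vitamin D, at 6.96 to 8.88 in BPH, against 8.93 to 10.15 in BPL (-1.28 ± 0.36, adjusted p = 0.0403). It was not called without any 1 of 6 arrays, BPL 1 among them (-1.04, adjusted p = 0.145).

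**Figure D4:**
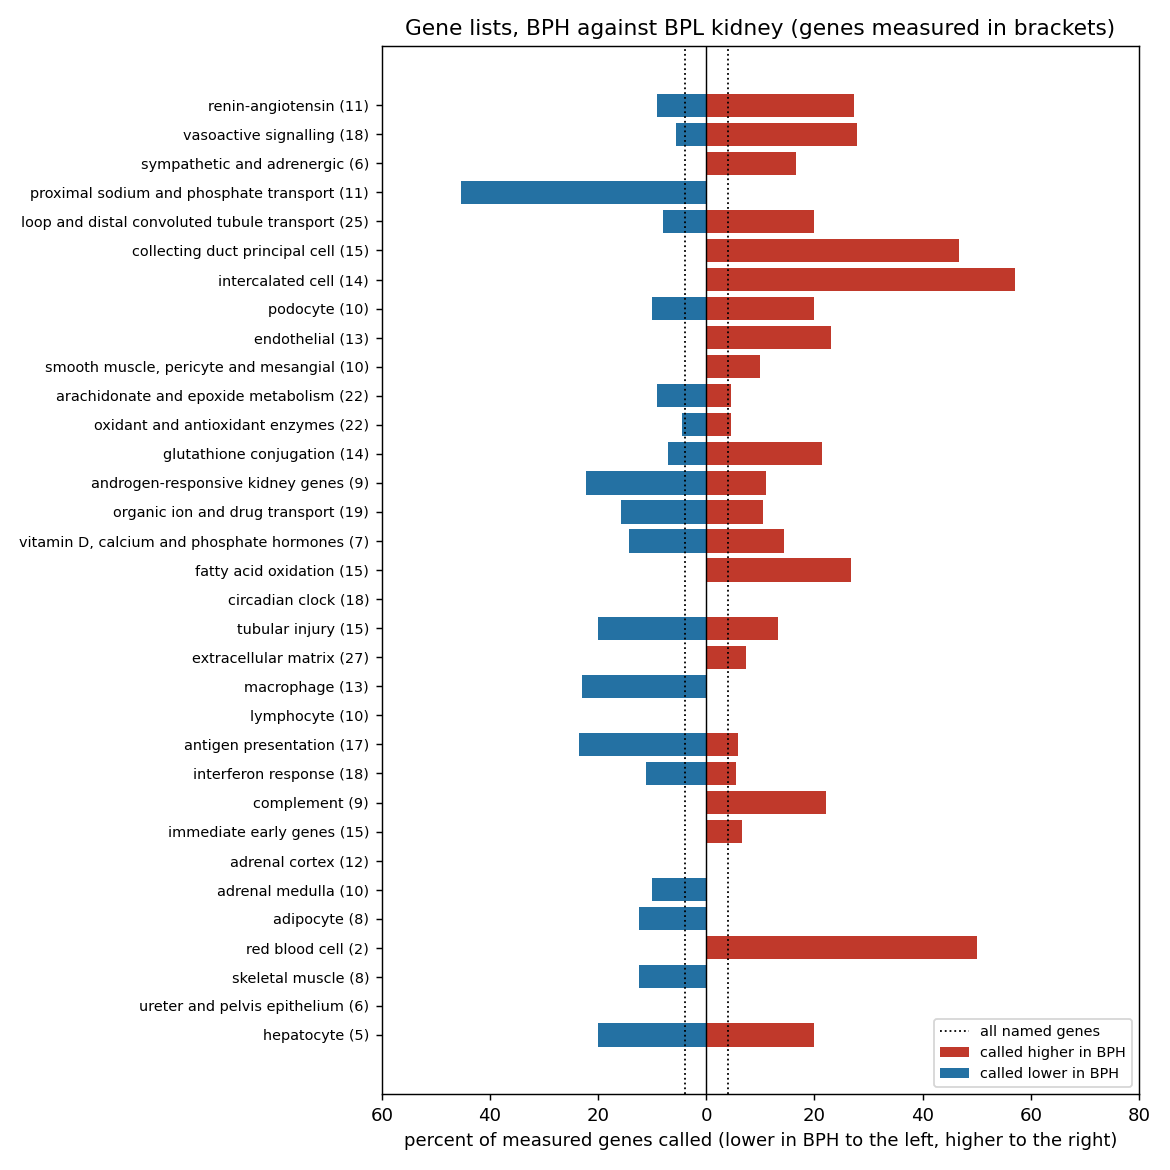
Percent of the measured genes of each list that were called lower (left of 0) and higher (right of 0) in BPH than in BPL kidney, with the percentages over all named genes as dotted lines. The intercalated cell list has 8 of 14 higher and the principal cell list 7 of 15, the proximal transport list has 5 of 11 lower, and the clock and lymphocyte lists have 0 called.

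Calls in glomerular and vascular lists were higher in BPH, except for Col4a4. Of 10 podocyte genes, 2 were called higher and 1 lower, where 7.88% of all named genes were called. The podocyte median was 0.007, and the summed level was 12.36 to 12.49 in BPH and 12.46 to 12.58 in BPL. Wt1, the transcription factor of podocytes, rose by 0.56 ± 0.10 (adjusted p = 0.00154), and Col4a4, a basement membrane collagen, fell by 0.44 ± 0.07 (adjusted p = 3.68e-04), with -0.59 ± 0.10 in its other probe set. Nphs1 was higher by 0.28 ± 0.07 but was not called without BPL 1 (0.24, adjusted p = 0.0667). Of 13 endothelial genes, 3 were called higher and 0 lower, with 5 at an unadjusted p under 0.05 and a median of 0.08. Ehd3, of glomerular endothelium, rose by 0.36 ± 0.07 (adjusted p = 0.00465). Flt1 (0.33), a receptor for the growth factor VEGF, was lost without BPL 2 or BPL 4 (0.29 and adjusted p = 0.0579 at its highest). Its dimmer probe sets gave 0.17 (adjusted p = 0.341) and -0.15 (adjusted p = 0.393), so its direction depends on the probe set. Kdr (0.28), another such receptor, was lost without any 1 of 7 arrays (0.26 and adjusted p = 0.0823 at its highest; without BPL 1, 0.29 and adjusted p = 0.0614). Rgs5, a marker of pericytes, measured 6.74, 6.97, 6.89, 7.21 and 7.12 in BPH, against 6.02, 6.12, 5.83 and 5.97 in BPL (1.00 ± 0.11, adjusted p = 8.71e-06), and was the 1 gene called of 10 in the smooth muscle, pericyte and mesangial list.

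Fat oxidation genes rose in part. Of 15, 4 were called higher and 0 lower, with 8 at an unadjusted p under 0.05 and a median of 0.02, and the 4 calls stood whichever array was left out. Acot1, a cytosolic acyl-CoA thioesterase, measured 9.14 to 9.34 in BPH, against 7.97 to 8.46 in BPL (1.02 ± 0.09, adjusted p = 8.56e-07). Ehhadh of the peroxisome (0.51 ± 0.07), the carnitine carrier Slc25a20 (0.41 ± 0.07) and the dehydrogenase Acadl (0.29 ± 0.06) also rose, whereas Cpt1a (0.06) and Ppara (-0.10) were not called.

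Among enzymes of arachidonate, the lipoxygenases Alox15 and Alox12 were lower in BPH. Alox15 measured 5.22, 5.38, 5.25, 5.17 and 5.12 in BPH, against 8.44, 8.23, 7.96 and 7.96 in BPL, and was 7.55-fold lower (-2.92 ± 0.12, adjusted p = 3.86e-11). Alox12 measured 4.39 to 4.98 in BPH, against 5.74 to 5.94 in BPL (-1.07 ± 0.11, adjusted p = 6.06e-06). The list of 22 genes had 1 further call, Cyp4a14, higher by 0.28 ± 0.08, which had both strain means below the lower quartile and was lost without any 1 of 6 arrays (0.25 and adjusted p = 0.122 at its highest). Cyp4a12a was not analysed here.

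Oxidant and conjugating enzymes changed singly. Prdx1, a peroxidase, measured 9.86 to 10.14 in BPH, against 9.08 to 9.18 in BPL (0.89 ± 0.09, adjusted p = 4.78e-06). Xdh, xanthine dehydrogenase, measured 6.01, 6.04, 6.47, 5.98 and 6.36 in BPH, against 7.58, 7.17, 7.18 and 7.19 in BPL (-1.11 ± 0.11, adjusted p = 3.87e-06; without BPL 1, -1.01). These were the calls among 22 genes, where 7.88% of all named genes were called. Nox4, the kidney NADPH oxidase, gave -0.13 ± 0.06 (adjusted p = 0.316) in its brightest probe set and -0.25 ± 0.06 (adjusted p = 0.023) in another, and Sod2 gave 0.05 (adjusted p = 0.759). Of 14 glutathione enzymes, 3 were called higher and 1 lower. Mgst3 rose by 1.05 ± 0.06 (adjusted p = 2.25e-09), with BPH at 11.24 to 11.34 and BPL at 10.19 to 10.26, and Gstt2 by 0.35 ± 0.06. Gstm4 (0.27) and Gstm6 (-0.37) were lost without any 1 of 5 and of 4 arrays, at adjusted p = 0.0801 and 0.109 at their highest.

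Of 19 organic ion and drug carriers, 2 were called higher and 3 lower. Slc47a1, which exports cations into urine, measured 11.45 to 11.61 in BPH, against 12.19 to 12.27 in BPL (-0.68 ± 0.06, adjusted p = 6.27e-07). Abcb1b, a P-glycoprotein, measured 3.93 to 4.38 in BPH, against 7.0, 5.56, 6.35 and 5.54 in BPL (-1.98 ± 0.38, adjusted p = 0.00285; without BPL 1, -1.68 and adjusted p = 0.0133). Slco4c1 (0.87 ± 0.09) and Abcc4 (0.55 ± 0.06) rose, and Slc22a6 (-0.26) was lost without any 1 of 7 arrays, BPL 1 among them (-0.24, adjusted p = 0.104). Of 9 androgen-responsive genes, Gusb, a lysosomal glucuronidase, rose to 10.16 to 10.66 in BPH, against 8.33 to 8.80 in BPL (1.90 ± 0.13, adjusted p = 3.08e-08). A far dimmer Gusb probe set averaged 4.06 in BPH and 3.98 in BPL and was not called (0.08 ± 0.09, adjusted p = 0.747). Cyp2j13 (-0.56 ± 0.08) and Timd2 (-0.42 ± 0.08) fell, and Kap, the androgen-regulated protein of the proximal tubule, gave 0.02 (adjusted p = 0.892).

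Tubular injury genes were mixed. Of 15, 2 were called higher and 3 lower in BPH, with a median of -0.19. Havcr1, the injury marker KIM-1, measured 8.12, 7.68, 7.97, 7.87 and 7.91 in BPH, against 8.75, 8.58, 8.21 and 8.30 in BPL (-0.55 ± 0.12, adjusted p = 0.00724). Lcn2, neutrophil gelatinase-associated lipocalin, measured 4.64 to 5.13 in BPH, against 6.33, 6.36, 5.47 and 5.44 in BPL (-1.05 ± 0.17, adjusted p = 8.61e-04). The adhesion molecule Vcam1 fell by 1.06 ± 0.12 (adjusted p = 2.09e-05), while the chaperone Clu rose by 0.72 ± 0.10 (adjusted p = 1.85e-04). Krt18 (0.34) was lost without any 1 of 7 arrays (0.28 and adjusted p = 0.14 at its highest). The 27 extracellular matrix genes had a median of -0.04, with 4 at an unadjusted p under 0.05. Of them, 2 were called higher and 0 lower, where 7.88% of all named genes were called. The 2 calls were Thbs1 (0.43), lost without BPL 1 (0.37, adjusted p = 0.0617) or BPL 5, and Tgfb2 (0.53), lost without BPH 5 or BPL 2, 4 or 5 (0.44 and adjusted p = 0.0976 at its highest).

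Calls among macrophage transcripts were all lower in BPH. Of 13, 0 were called higher and 3 lower, with 6 at an unadjusted p under 0.05 and a median of -0.27. C1qb, of the complement starter C1q, measured 6.26, 6.41, 6.51, 6.46 and 6.40 in BPH, against 7.70, 7.59, 6.96 and 7.17 in BPL (-0.95 ± 0.14, adjusted p = 3.58e-04), and C1qc fell by 0.81 ± 0.14 (adjusted p = 0.00153). The chemokine receptor Cx3cr1 (-0.34) was lost without BPH 1, BPL 2 or BPL 4 (-0.31 and adjusted p = 0.0709 at its highest). The summed macrophage level was 9.52 to 9.76 in BPH and 9.87 to 10.23 in BPL. Adgre1, the F4/80 antigen, gave -0.62 (adjusted p = 0.0535; without BPL 1, -0.37) and Lyz2 -0.01. Of 10 lymphocyte genes, 0 were called in limma and 1 had an unadjusted p under 0.05.

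Class II chains went in opposite directions. H2-Ea, the alpha chain of the E molecule, measured 8.36, 8.14, 8.37, 8.41 and 8.09 in BPH, against 5.74, 5.14, 5.30 and 4.87 in BPL, and was 8.06-fold higher in BPH (3.01 ± 0.19, adjusted p = 1.04e-08), with BPN at 9.36. H2-Aa, the alpha chain of the A molecule, fell by 0.66 ± 0.12 (adjusted p = 0.00282) and H2-DMb1, which loads peptides, by 1.08 ± 0.18 (adjusted p = 9.58e-04). These were among 1 higher and 4 lower of 17 antigen presentation genes. H2-K1 (-0.47) was lost without BPH 2, BPL 1 or BPL 2 (-0.43 and adjusted p = 0.0711 at its highest; without BPL 1, -0.45 and adjusted p = 0.0619), and H2-Eb1 (-0.61) without any 1 of 6 arrays, BPL 1 among them (-0.58, adjusted p = 0.0979), so 2 genes were called lower without BPL 1. Of 18 interferon genes, 1 was called higher and 2 lower. Usp18 fell by 0.58 ± 0.12 (adjusted p = 0.00523), and Ifit1 (-0.51) and Igtp (0.55) were each lost without any 1 of 5 arrays (adjusted p = 0.114 and 0.105 at their highest). Without BPL 1 they gave -0.49 (adjusted p = 0.0861) and 0.58 (adjusted p = 0.055), which left 1 call in the list. Cd59a (0.40 ± 0.07) and Cd55 (0.70 ± 0.15), which shield cells from complement, rose as the 2 calls of 9 complement genes.

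Clock genes gave 0 limma calls of 18, with 2 at an unadjusted p under 0.05; Nr1d2, a repressor of the clock, gave -0.40 (adjusted p = 0.11). Of 15 immediate early genes, 14 had differences above 0, and 1 was called. It was Egr1, at 7.34, 6.94, 7.76, 7.46 and 8.15 in BPH, against 6.18, 6.13, 5.76 and 5.77 in BPL (1.57 ± 0.36, adjusted p = 0.0114). Without BPL 1 a second gene, Ier2, was called (0.47, adjusted p = 0.0452; with BPL 1, 0.40 and adjusted p = 0.0715). Fos gave 0.98 (adjusted p = 0.305) and Dusp1 0.67 (adjusted p = 0.105).

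Npy, a peptide of sympathetic nerves and adrenal medulla, was lower in BPH. It measured 5.56, 5.61, 5.63, 5.58 and 5.50 in BPH, against 8.41, 8.52, 8.45 and 8.08 in BPL, and was 6.92-fold lower (-2.79 ± 0.12, adjusted p = 9.06e-11). It was the 1 call among 10 adrenal medulla genes. All 4 BPL arrays were high, and the difference without BPL 1 was -2.78, while Th, the enzyme that starts catecholamine synthesis, measured 3.83 to 4.20 in BPH, against 5.04 in BPL 1 and 3.82 to 4.16 in the other BPL arrays. Of 5 hepatocyte genes, Apob was higher and Ttr, transthyretin, lower (7.52 to 7.88 in BPH, against 8.50 to 8.93 in BPL, -1.03 ± 0.10), whereas Alb, the most abundant hepatocyte protein, gave 0.22 (adjusted p = 0.639). Of 6 genes of ureter and pelvis epithelium, 0 were called in limma, with 2 at an unadjusted p under 0.05.

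Called genes lay beside each other more often than other genes lay beside a called gene. In RefSeq gene order, 436 of 1502 called genes (29.03%) had a called neighbour, as did 2356 of 17409 other genes (13.53%), with no test made of this difference. The longest run was of 6 genes, Phactr2, Fuca2, Pex3, Adat2, Aig1 and Hivep2, of which Hivep2 alone was higher in BPH. Fuca2, a fucosidase, fell by 0.45 ± 0.06 (adjusted p = 1.31e-04) and Adat2, a tRNA deaminase subunit, by 1.06 ± 0.14 (adjusted p = 8.02e-05). Phactr2 was lost without BPL 2 (-0.39, adjusted p = 0.0545), Aig1 without BPL 1 or BPL 2 (-0.24 and adjusted p = 0.053 at its highest), and Pex3 and Hivep2 each without any 1 of 6 arrays (adjusted p = 0.111 and 0.0889 at their highest, BPL 1 among the arrays for both). A run of 5 higher genes, Zbed5, Nupr1l, Vkorc1l1, Gusb and Asl, held Gusb (1.90) and Nupr1l (0.75 ± 0.12), with Zbed5 (adjusted p = 0.0502 without BPL 1) and Asl lost without any 1 of 7 and of 6 arrays (adjusted p = 0.1 and 0.0783 at their highest).

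Of 6 runs of 4 genes, 2 were taken for description, and the other 4 were as long. In the first, Acox2, a peroxisomal oxidase of bile acid synthesis, measured 9.53 to 9.68 in BPH, against 7.71 to 8.0 in BPL (1.71 ± 0.07, adjusted p = 8.1e-11). Its neighbour Fam107a measured 9.26 to 9.57 in BPH, against 7.32 to 7.62 in BPL (1.89 ± 0.09, adjusted p = 2.09e-10). Oit1, in the same run, was higher by 0.40 ± 0.09, but was not called with the replicate number as a block (0.37, adjusted p = 0.0546) or without BPL 1, BPN 4 and BPN 5 (0.34, adjusted p = 0.0539). Kctd6 was lower by 0.51 on the log2 scale. The run of Pter, C1ql3, Rsu1 and Cubn held the proximal tubule gene Pter at 9.58 to 9.90 in BPH, against 10.40 to 10.78 in BPL (-0.82 ± 0.09, adjusted p = 1.55e-05), and in it Rsu1 alone was higher (0.46 ± 0.08).

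The strain difference was then compared with that of liver and of heart in joint fits. The BPH minus BPL difference itself differed between kidney and liver for 1572 probe sets (4.1%) and between kidney and heart for 2249 (5.86%). Angptl7 gave 5.17 in kidney, against 0.11 ± 0.09 in liver and 0.28 ± 0.12 in heart, and Hdc 4.74, against -0.03 ± 0.12 in liver and 0.06 ± 0.12 in heart. Tm4sf5 gave -4.41 in kidney, against -0.51 ± 0.10 in liver and -0.51 ± 0.09 in heart. Pik3c2g gave 4.06 in kidney, against 0.71 ± 0.12 in liver and -0.05 ± 0.11 in heart. Each of these differences between tissues was called, at adjusted p = 2.88e-15 or lower. Some other large kidney differences, picked with their values known, were large in liver and heart too. Thumpd1 gave 3.82 in kidney, 3.53 ± 0.10 in liver and 4.32 ± 0.06 in heart. Atg4a gave -3.26, -3.53 ± 0.10 and -2.92 ± 0.07, and H2-Ea 3.01, 2.34 ± 0.11 and 2.63 ± 0.17, in the same order. Among these, kidney and heart differed by the joint fit for Thumpd1 (adjusted p = 0.0192) and Atg4a (adjusted p = 0.0172).

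In other genes it was the second tissue that differed more. Nat8f2 gave 3.99 in kidney and 9.04 ± 0.07 in liver, where BPH averaged 11.36 ± 0.11 and BPL 2.32 ± 0.08 (SD, n = 5 each; kidney minus liver -5.05 ± 0.13, adjusted p = 1.91e-22). BPL was at 2.84 in kidney, and both BPL means lay below the kidney lower quartile of 3.49, so the sizes of these differences are uncertain. Itih5, a hyaluronan-binding protein, gave 0.36 ± 0.10 in kidney and -3.82 ± 0.19 in liver (kidney minus liver 4.18 ± 0.24, adjusted p = 1.16e-13), and its kidney call was lost without any 1 of 7 arrays (0.28 and adjusted p = 0.158 at its highest). Snap91, an assembly protein of clathrin coats, measured 4.63 to 5.30 in BPH kidney, against 5.89 to 6.20 in BPL kidney (-1.17 ± 0.12), and gave 2.60 ± 0.10 in heart, the opposite direction.

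**Figure D5:**
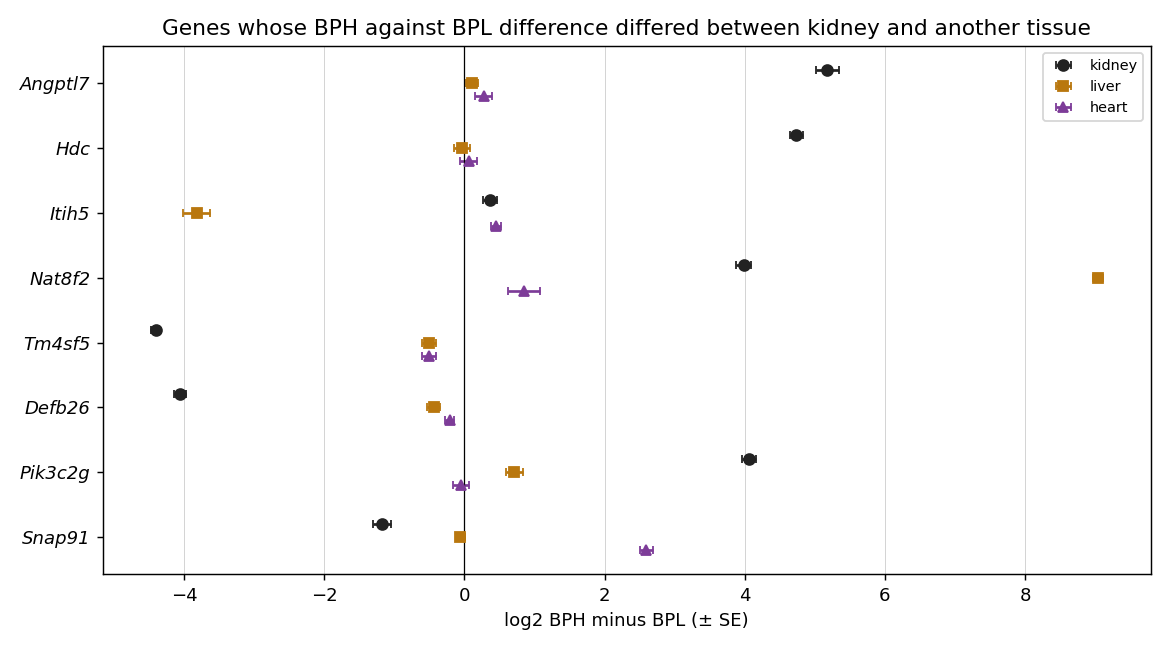
Log2 difference of BPH minus BPL (horizontal axis, ± SE) in kidney, liver and heart for 8 genes whose difference was unlike between kidney and another tissue. Angptl7, Hdc, Tm4sf5 and Defb26 differ far more in kidney than in liver or heart, Nat8f2 differs most in liver, and Snap91 has opposite signs in kidney (-1.17) and heart (2.60).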

How the data were processed

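RNA of each kidney was amplified and labelled with biotin and hybridised to a custom mouse array, per the labels' protocols. The authors made the deposited intensity values with RMA, per the submitters' processing notes. These were read here as linear. The build behind the probes was not given in the sources used here. Values were put on the log2 scale with a pseudocount of 0. Array medians were 29.8 to 31.5 in kidney. No plate or scan date was given. The number of arrays limits the precision, and detection calls were not used.

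All 14 kidney arrays (5 BPH, 5 BPN, 4 BPL) were fitted with limma 3.58.1 in R 4.3.3 (lmFit and eBayes, a mean per strain). The p-values were adjusted by Benjamini-Hochberg across the 38385 probe sets, and a probe set was called below 0.05. Values after ± are standard errors of the fit unless SD is written, and "fold" is 2 to the power of the log2 difference. A summed level is log2 of the summed intensities of a list. The joint tissue fits took kidney with liver or with heart. Of the probe sets, 24478 had 1 gene symbol in the platform annotation, 65 several and 13842 none; 24237 had an Entrez identifier in the RefSeq table of GRCm38.p6, used for symbols and gene order alone. No fold is given where a strain mean lay below the lowest lower quartile of the arrays.

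The genes named were the 14 largest called differences in each direction that did not overlap, held without BPL 1 and had the higher strain above the median; up to 4 called genes per list, lowest adjusted p first; a set of fixed genes; the 3 largest tissue differences in each direction; and the members of the 4 longest runs of neighbours, with runs of equal length taken in order of chromosome name, sorted as text, and position. The tissue differences were ranked among genes called both in kidney and in the joint fit, with the higher kidney strain above the median. Genes that differed in liver or heart but were not called in kidney could not be named by that rule. Other list members in the text were picked with their values known. The members, the 33 lists and the rule were chosen with earlier results of these data known. The alternatives were the arrays fitted, pseudocount, filter, scaling, variance model, replicate block and each array left out. In simulated kidney data of 38385 probe sets, 120 of 200 changes of 0.5, 195 of 200 of 1 and 200 of 200 of 2 (log2) were recovered. The simulation drew independent normal noise and changed 200 probe sets alone, so its shares need not hold for the real contrast.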

Additional observations from a re-analysis of the deposited data

Results flagged for a closer look

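Of 270 groups of arrays of 1 strain tested with Dixon's criterion, 11 had 1 array far from the rest; chance sets apart about 1 in 20 such groups. In BPL 1, Xdh was 7.58 (7.17 to 7.19 in the other BPL arrays) and Star 8.55 (3.57 to 4.24). Within BPH, Tm4sf5 was 4.27 in BPH 4, Nipal2 6.96 in BPH 3, Tgfb2 6.35 in BPH 5, Cyp11b2 3.89 in BPH 5, Phactr2 5.83 in BPH 1, and Pex3 and Rsu1 8.45 and 9.77 in BPH 3. Within BPL, Igtp was 5.95 in BPL 5 and Fuca2 12.79 in BPL 2.

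The BPH minus BPL difference differed by test between kidney and liver for Angptl7 (5.07), Hdc (4.76), Itih5 (4.18), Nat8f2 (-5.05), Tm4sf5 (-3.90) and Defb26 (-3.62), each as the kidney value minus the liver value. Between kidney and heart it differed for Angptl7 (4.90), Hdc (4.68), Pik3c2g (4.11), Tm4sf5 (-3.90), Defb26 (-3.84) and Snap91 (-3.77).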

How the results depend on the processing

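With a pseudocount of 16 the 2-fold count was 173 in place of 275, as that constant shrinks differences of dim probe sets. In a fit of all 67 arrays and 12 groups, 973 probe sets differed between kidney and liver and 1044 between kidney and heart, and the cause was not tested. Leaving out 1 array gave 1936 to 2194 calls in kidney, 267 to 292 by 2-fold, 1351 to 1580 between kidney and liver and 1928 to 2242 between kidney and heart. Of 122 called genes named by the rule, 98 were called whichever of the 9 arrays was left out, 24 were not, and 0 changed sign in any alternative. Without BPL 1, BPN 4 and BPN 5, a choice made after seeing the data, 1839 probe sets were called and 281 by 2-fold. In that fit the principal cell list had 7 genes higher, not the same 7 since Sgk1 was not called (adjusted p = 0.0543), the intercalated list 8 higher and the proximal list 5 lower. Same-numbered arrays of different strains did not deviate together (13 pairs, r from -0.285 to 0.278, 1 over 0.1). This gave no sign of pairing by number, but it cannot settle the question, since no label names the animal. Pairs with unlike numbers ran from -0.36 (BPH 5 with BPN 2) to 0.381 (BPN 4 with BPL 1), and a shared batch was not tested. With the replicate block, 1896 probe sets were called, 277 by 2-fold, 1395 between kidney and liver and 1798 between kidney and heart. With the block as a random term across tissues the last 2 counts were 1786 and 2148. Median centring gave 931 higher and 1308 lower. Of the 275 probe sets called by 2-fold, 30 had a strain mean below the lowest lower quartile of the arrays, where the signal over background is not known here.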

Other observations

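For 13 genes with several named probe sets, one probe set was called higher and another lower in BPH, of 553 genes with several probe sets and a call. Arsk, an arylsulfatase, averaged 5.88 in BPH and 8.28 in BPL in one probe set (-2.40 ± 0.10, adjusted p = 1.07e-10) and 8.62 in BPH and 8.28 in BPL in another (0.34 ± 0.09, adjusted p = 0.0247). Gng12, a G protein subunit, gave 1.08 ± 0.08 (adjusted p = 9.22e-08) and -0.28 ± 0.06 (adjusted p = 0.0086). Scyl2, which acts in clathrin traffic, gave -0.95 ± 0.08 (adjusted p = 7.94e-07) and 0.51 ± 0.08 (adjusted p = 5.78e-04). Prkaa2, a catalytic subunit of the energy sensor AMPK, gave 1.23 ± 0.23 (adjusted p = 0.00252), 0.30 ± 0.06 and -0.31 ± 0.07 (adjusted p = 0.0113). Dtd2, Ctso, Klc1, Camta1, Fto, Dctn4, Slc30a7, Slfn5 and Stxbp5 were the other such genes. The probe sets of a gene may read different transcripts of it, and which ones was not tested. These genes were chosen after their values were seen. Among called genes named by the rule, besides those given above, some dimmer probe sets were not called, each in the direction of the brightest one. They were of Atp6v1b1 (0.27, adjusted p = 0.119), Cd59a (0.28, adjusted p = 0.235), Cx3cr1 (-0.18, adjusted p = 0.493), Phactr2 (-0.44, adjusted p = 0.133) and Snap91 (-0.16, adjusted p = 0.295). Others were of Thbs1 (0.27, adjusted p = 0.0975), Maoa (0.35, adjusted p = 0.129), H2-K1 (-0.45, adjusted p = 0.056), Itih5 (0.30, adjusted p = 0.0557) and Vkorc1l1 (0.09, adjusted p = 0.743). Slc20a2 (-0.14, adjusted p = 0.651) and Tgfb2 (0.19, adjusted p = 0.585) had such a probe set too, beside dimmer ones that were called.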
